A study of Mus musculus with 6 samples.

Results

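The 32 genes described here make, sense, take up, store and export cholesterol. They were chosen by gene name, from a list of pathway members drawn up with earlier results of these data known, out of 53135 genes and unnamed loci in the transcript tables, and each of the 32 names was found. Total RNA was sequenced from mouse lines of Sertoli cells, the somatic cells of the seminiferous tubule that nurse germ cells. GFP-positive libraries (replicates 2, 4 and 7) came from green cells that expressed a GFP reporter on the Y chromosome, and GFP-negative libraries (replicates 9, 11 and M) from non-green cells. The comparison asks how lines of green cells differ from lines of non-green cells. Whether the non-green cells carry a silent reporter or lack it was not tested. Strain, age, the promoter of the reporter, and whether replicates were separate clones, cultures or animals are not stated in the labels, so p-values measure only the spread between these libraries, which may be technical.

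Cholesterol is built from acetyl-CoA. The mevalonate steps give isoprenoid units, which are joined to squalene, closed into lanosterol and trimmed to cholesterol. When sterol in the endoplasmic reticulum is low, the escort protein SCAP carries the SREBP transcription factors to the Golgi, where they are cut and freed to switch on the synthesis genes. INSIG proteins hold SCAP back when sterol is high. When oxysterols accumulate, the nuclear receptors LXRα and LXRβ switch on the exporters ABCA1 and ABCG1. Sertoli cells take up lipid from residual bodies and dying germ cells, and cholesterol handling in these cells is tied to male fertility.

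Promoter sequences are shown for synthesis genes that were higher in the GFP-positive libraries (Idi1, Msmo1 and Ebp), for the entry enzyme gene Hmgcs1, and for Insig1, a classical SREBP target. Each run is the 250 bases before the RefSeq start site, 5′ to 3′ on the strand of the gene, in GRCm38.p6 coordinates (Hmgcs1 chr13:119690101-119690350, plus strand, Idi1 chr13:8885356-8885605, plus strand, Msmo1 chr8:64733579-64733828, minus strand, Ebp chrX:8193513-8193762, minus strand, and Insig1 chr5:28071162-28071411, plus strand). Capitals mark CCAAT, the letters bound by NF-Y, or its reverse complement, and TCACNNCAC, a loose form of the sterol regulatory element.
Hmgcs1: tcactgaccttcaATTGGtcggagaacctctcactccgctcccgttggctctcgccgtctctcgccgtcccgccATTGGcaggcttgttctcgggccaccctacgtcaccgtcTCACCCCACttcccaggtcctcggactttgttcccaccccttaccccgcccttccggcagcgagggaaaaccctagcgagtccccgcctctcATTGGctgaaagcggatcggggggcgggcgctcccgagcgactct
Idi1: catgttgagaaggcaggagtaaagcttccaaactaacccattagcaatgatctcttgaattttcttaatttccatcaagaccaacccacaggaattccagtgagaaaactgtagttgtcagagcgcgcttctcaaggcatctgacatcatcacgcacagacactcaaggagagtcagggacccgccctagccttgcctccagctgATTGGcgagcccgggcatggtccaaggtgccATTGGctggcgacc
Msmo1: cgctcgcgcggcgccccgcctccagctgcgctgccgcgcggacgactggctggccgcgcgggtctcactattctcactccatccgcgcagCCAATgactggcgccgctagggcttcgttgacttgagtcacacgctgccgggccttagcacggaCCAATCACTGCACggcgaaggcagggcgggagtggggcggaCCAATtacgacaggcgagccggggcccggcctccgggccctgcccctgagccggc
Ebp: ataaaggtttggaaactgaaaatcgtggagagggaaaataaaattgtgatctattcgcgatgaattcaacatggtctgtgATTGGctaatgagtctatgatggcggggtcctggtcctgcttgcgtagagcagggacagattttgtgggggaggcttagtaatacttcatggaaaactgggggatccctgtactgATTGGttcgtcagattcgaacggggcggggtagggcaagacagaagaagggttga
Insig1: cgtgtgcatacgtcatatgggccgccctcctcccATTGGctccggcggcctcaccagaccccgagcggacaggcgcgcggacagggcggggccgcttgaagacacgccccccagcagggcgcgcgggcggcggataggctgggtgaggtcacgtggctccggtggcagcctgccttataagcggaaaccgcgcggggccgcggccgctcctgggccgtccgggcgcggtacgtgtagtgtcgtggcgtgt

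In Msmo1 one CCAAT and the TCACNNCAC match overlap by a single T, and in Hmgcs1 the matches stand apart. The motifs were searched on both strands of windows from 250 bases before to 50 after each start. Of the 18 synthesis genes, 15 had a promoter entry, and 14 of these held CCAAT (93.3%), against 41.1% of the 27025 symbols in the table. TCACNNCAC was found in 4 of the 15 (Hmgcs1, Msmo1, Hsd17b7 and Dhcr7), or 26.7%, against 4.37% of all symbols, and GGGCGG, the GC box read by SP1, in 14 (93.3%) against 38.2%. Of the 14 described genes outside synthesis, 11 had an entry. Of these, 6 held CCAAT (54.5%), 8 GGGCGG (72.7%) and 0 TCACNNCAC, so the GC box was common there too. The 6 called synthesis genes with an entry held CCAAT in 6 cases and TCACNNCAC in 1, and the 9 that were not called held them in 8 and 3. Because 14 of the 15 held CCAAT, these letters could not separate synthesis genes that rose from those that were not called. TCACNNCAC, in 4 of them, was too rare to do so. The called genes Fdft1 and Fdps had no entry. A match is not a measured binding site.

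All levels are FPKM, the fragments per kilobase of transcript relative to library depth, after scaling by a median of ratios. They are given as mean ± SD over 3 libraries unless single libraries are named. Differences are log2(scaled FPKM + 0.5), GFP-positive minus GFP-negative, each with its SE, and "rose" or "fell" is used for an adjusted p under 0.05. The libraries held 8.251 to 11.85 Gb of aligned bases, more in the GFP-positive ones (11.2 to 11.85) than in the GFP-negative ones (8.251 to 10.02). Of 20 Sertoli markers 19 passed the filter on low values, 1 rose and 4 fell, and their summed level was 2350 to 3990 FPKM in the GFP-positive and 1830 to 4210 FPKM in the GFP-negative libraries. Wt1 was at 13.6 FPKM or more in each library, Sox9, which fell, at 9.62 FPKM or more, and Rhox5 at or near 0. Among markers of other cells, the 16 germ cell genes summed to 43.4 to 183 FPKM in the GFP-positive and 2.96 to 5.04 FPKM in the GFP-negative libraries. Of 10 tested, 8 were higher, against 16.6% of all tested genes. Several of these, among them Tex101 (0.11 to 0.19 FPKM in the GFP-negative libraries) and Sycp3 (0 to 0.045 FPKM), met the filter only through the GFP-positive libraries. For such genes the filter itself favoured a higher call. The 8 fibroblast genes summed to 90 to 150 FPKM in the GFP-positive libraries and to 83.3, 1320 and 403 FPKM in GFP-negative 9, 11 and M, and the 7 peritubular myoid genes to 135 to 1950 and 393 to 974 FPKM. In each of these lists 7 genes were tested, 2 fell and 0 rose, against 13.7% lower and 16.6% higher among all tested genes. Col1a1, Pdgfrb, Myh11 and Actg2 fell, while the abundant myoid genes Tagln and Acta2 were not called. The part of these cell types in the results below was not tested. In bulk RNA, fewer cells of a type and less RNA per cell cannot be told apart.

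A mean of 0.5 FPKM or more was required for testing, and 31 of the 32 genes met it, with a lowest group mean of 1.39 FPKM, for Nr1h3 in the GFP-negative libraries. Across all 15294 tested genes, 30.3% were called (16.6% upward and 13.7% downward in GFP-positive lines). Among the 31, 11 rose (35.5%) and 2 fell (6.45%). In synthesis, 8 of 18 genes rose (44.4%) and none fell in limma (10 higher and none lower at an unadjusted p under 0.05), with a median log2 difference of 0.74 against 0.03 for all genes. Of the 13 tested genes outside synthesis, 3 rose and 2 fell, with a median of -0.45. In 13 of 18 synthesis genes each GFP-positive library was above each GFP-negative one, and in none the reverse, against 24.4% and 23.2% of all tested genes (47.7% either way). The difference between synthesis and the other roles was not tested. The FPKM of all transcripts as deposited summed to 668557 to 747404 in the GFP-positive and 292449 to 470070 in the GFP-negative libraries. The sign of many differences therefore depends on the scaling, and which scaling is right was not tested. Scaled to an equal sum of FPKM, where the median of all genes stood at -0.85 and 8.33% of all calls were upward (54.8% in the scaling used here), 1 synthesis gene rose and 2 fell, and their median of -0.22 was 0.63 above that of all genes.

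**Figure D1:**
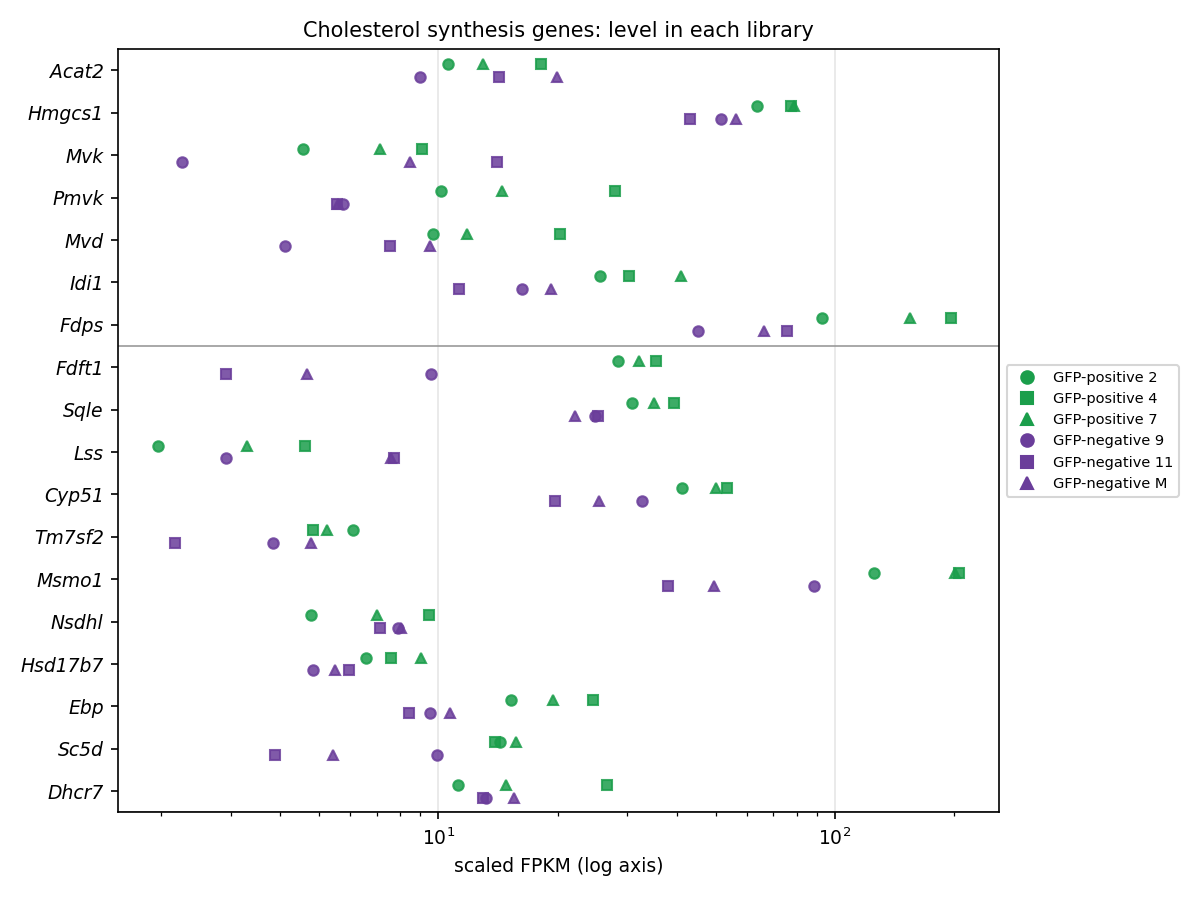
Scaled FPKM on a log axis of the 18 synthesis genes in each library, green for GFP-positive and purple for GFP-negative, with 1 symbol per replicate and the mevalonate steps above the line. In 13 genes, among them Fdft1, Msmo1 and Fdps, the green points lie to the right of all purple points.

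Of the 7 mevalonate and isoprenoid genes, 3 rose, and their median log2 difference was 0.94. Pmvk, which encodes phosphomevalonate kinase (chromosome 3, 89361848 to 89376320, mm39), measured 10.1, 27.9 and 14.5 FPKM in GFP-positive 2, 4 and 7 and 5.74, 5.55 and 5.59 FPKM in GFP-negative 9, 11 and M. The GFP-negative libraries lay close together and below each GFP-positive one, and GFP-positive 4 was highest. Pmvk rose from 5.63 ± 0.102 to 17.5 ± 9.27 FPKM (log2 difference 1.43, SE 0.35, adjusted p = 0.0195). Fdps, the farnesyl diphosphate synthase gene (chromosome 3, 89000895 to 89009266), stood at 93.0, 195.9 and 154.7 FPKM in the GFP-positive and 45.2, 75.9 and 66.3 FPKM in the GFP-negative libraries. Its groups did not overlap, and it rose by 1.20 (SE 0.35, adjusted p = 0.0335). Idi1, which encodes isopentenyl diphosphate isomerase (chromosome 13, 8935537 to 8942487), stood at 25.6, 30.2 and 40.9 against 16.2, 11.3 and 19.3 FPKM. It rose by 1.03 (SE 0.29, adjusted p = 0.0297), with each GFP-positive library above the GFP-negative ones.

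These 3 calls depended on single libraries. Pmvk did not pass without GFP-positive 7 (adjusted p = 0.0645) or GFP-negative M (0.0795). Fdps did not pass without GFP-positive 4 (0.0975) or 7 (0.113) or GFP-negative 9 (0.0529) or M (0.1), and Idi1 without GFP-positive 4 (0.0663) or 7 (0.12) or GFP-negative 11 (0.0818) or M (0.0714). After quantile normalization Fdps was at 0.69 (adjusted p = 0.14) and Idi1 at 0.90 (0.0567). With a trend in transcript length removed, the 3 log2 differences were 0.94, 0.75 and 0.93 for Pmvk, Fdps and Idi1 (adjusted p = 0.084, 0.143 and 0.0628). Under equal sums they were 0.46, 0.19 and 0.03.

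The other mevalonate genes did not pass. Hmgcs1, which encodes the synthase that makes HMG-CoA, was the most abundant of them, at 73.3 ± 8.30 FPKM in the GFP-positive and 50.4 ± 6.73 FPKM in the GFP-negative libraries. Its groups did not overlap, and its log2 difference was 0.54 (95% interval -0.02 to 1.10, adjusted p = 0.122). Mvd, the mevalonate diphosphate decarboxylase gene, had a difference of 0.94 (0.09 to 1.78, adjusted p = 0.0847) with groups that did not overlap but lay close, since GFP-negative M was at 9.53 and GFP-positive 2 at 9.70 FPKM. Acat2, the cytosolic thiolase gene that opens the pathway (not the esterification enzyme of the same older name), was at 13.9 ± 3.83 and 14.4 ± 5.46 FPKM, a difference of -0.01 (-0.77 to 0.75). Mvk, the mevalonate kinase gene, ranged more within the GFP-negative group (2.26, 14.0 and 8.50 FPKM in 9, 11 and M) than between groups, with an interval of -1.25 to 1.28. Scaled to an equal sum, the differences of Hmgcs1 (-0.48), Mvd (-0.04) and Mvk (-0.94) were below 0.

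Among the squalene and sterol ring steps, Fdft1 had the largest difference. It encodes squalene synthase, the first enzyme committed to sterols (chromosome 14, 63382599 to 63417094), and measured 28.4, 35.5 and 32.1 FPKM in GFP-positive 2, 4 and 7 and 9.58, 2.91 and 4.66 FPKM in GFP-negative 9, 11 and M. The GFP-positive libraries were alike, and GFP-negative 9 was the highest of its group. Fdft1 rose by 2.53 (SE 0.38, adjusted p = 0.00642), and it passed in each of 18 alternative analyses (log2 difference 1.56 to 2.94). The locus also holds Gata4 and Neil2, and 2 unnamed transcripts assigned to this shared locus were at 4.43, 9.79 and 5.79 FPKM as deposited in the GFP-positive and 7.63, 6.20 and 8.03 FPKM in the GFP-negative libraries. They were not counted in any gene, and with them added to Fdft1 its difference was 1.58 (SE 0.28, adjusted p = 0.00894). Most of the GFP-positive level came from a transcript with the downstream start (20.1, 28.3 and 22.4 FPKM as deposited, against 9.20, 0.764 and 2.41), the rest mainly from a longer form that starts upstream (10.9, 3.36 and 7.15 against 0.699, 1.67 and 2.01). On the opposite strand Fdft1 overlaps Ctsb, and whether reads were assembled by strand is not stated in the labels.

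Further along the pathway 4 genes rose. Msmo1, which encodes the methylsterol monooxygenase that starts removal of the C4 methyl groups (chromosome 8, 65171173 to 65186826), stood at 125.5, 205.6 and 201.0 FPKM in the GFP-positive and 88.5, 37.9 and 49.5 FPKM in the GFP-negative libraries. Each GFP-positive library was above each GFP-negative one, and it rose by 1.65 (SE 0.37, adjusted p = 0.0158). Sc5d, the lathosterol oxidase gene (chromosome 9, 42162891 to 42175552), was even among the GFP-positive libraries (14.3, 13.9 and 15.7 FPKM) and lower and more spread in the others (9.92, 3.88 and 5.42 FPKM), a rise of 1.23 (SE 0.33, adjusted p = 0.0255). Ebp, the sterol isomerase gene on the X chromosome (8051568 to 8059751), rose from 9.56 ± 1.15 to 19.8 ± 4.66 FPKM (0.99, SE 0.26, adjusted p = 0.0225). Cyp51, the lanosterol demethylase gene (chromosome 5, 4131145 to 4154746), rose from 25.9 ± 6.55 to 48.2 ± 6.35 FPKM (log2 difference 0.90, SE 0.27, adjusted p = 0.0352). With libraries set to an equal sum none of the 4 passed: Msmo1 was at 0.63 (adjusted p = 0.11), Sc5d at 0.26 (0.53), Ebp at 0.0065 (0.987) and Cyp51 at -0.10 (0.771). Cyp51 overlaps Akap9 on the opposite strand.

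Each of these 4 calls was lost without GFP-positive 4, GFP-positive 7 or GFP-negative M. Msmo1 had adjusted p = 0.0523, 0.0702 and 0.0727 in those fits, Sc5d 0.0623, 0.0927 and 0.103, Ebp 0.0634, 0.0848 and 0.0773, and Cyp51 0.0914, 0.121 and 0.121. Without GFP-negative 11, Sc5d (0.0616), Ebp (0.058) and Cyp51 (0.094) also did not pass, nor did Sc5d (0.0579) and Cyp51 (0.0532) without GFP-positive 2. Msmo1, Sc5d and Cyp51 passed with the length trend removed, and Ebp did not (0.0856), and Cyp51 missed after quantile normalization (0.0888).

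The remaining ring genes did not pass, and 2 of them had differences below 0. Sqle, the squalene epoxidase gene, was at 35.0 ± 4.26 FPKM in the GFP-positive and 24.1 ± 1.74 FPKM in the GFP-negative libraries, with no overlap (0.52, interval 0.01 to 1.04, adjusted p = 0.107). Hsd17b7 (0.47, adjusted p = 0.157), a ketoreductase gene, and Tm7sf2 (0.58, adjusted p = 0.173), a sterol reductase gene, likewise had groups that did not overlap. Hsd17b7 passed in 2 of the 18 alternatives, among them the fit with the length trend removed (0.84, adjusted p = 0.0452). Tm7sf2 overlaps Vps51 on the same strand. Scaled to an equal sum, Sqle (-0.48), Hsd17b7 (-0.48) and Tm7sf2 (-0.34) were below 0. Dhcr7, which encodes the reductase of the last step, was at 11.2, 26.6 and 14.8 against 13.2, 12.9 and 15.6 FPKM, so that GFP-positive 4 alone stood above the rest (0.24, interval -0.50 to 0.98). Nsdhl, an X-linked decarboxylating dehydrogenase gene, was at 7.09 ± 2.37 and 7.69 ± 0.496 FPKM (-0.16, adjusted p = 0.688).

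Lss, which encodes lanosterol synthase, the enzyme directly after Sqle, ran the other way. It stood at 1.97, 4.61 and 3.29 FPKM in the GFP-positive and 2.92, 7.72 and 7.62 FPKM in the GFP-negative libraries. GFP-negative 9 fell within the GFP-positive range, and the difference of -0.75 (interval -1.69 to 0.19) did not pass (adjusted p = 0.191). Lss passed in 3 of the 18 alternatives, among them the fit without GFP-negative 9 (-1.17, adjusted p = 0.0269). In the other fits with a library left out, the adjusted p was 0.16 to 0.459. With the length trend removed, the difference was -0.25 (0.682). Lss was the least abundant synthesis gene in the GFP-positive libraries, at 3.29 ± 1.32 FPKM.

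Most synthesis genes shared an order of libraries in the GFP-positive group. GFP-positive 4 was the highest of its group in 13 of 18 and GFP-positive 2 the lowest in 16 of 18, against 38.8% and 38.1% of all tested genes. In the GFP-negative group, 11 was lowest in 11 of 18 genes, against 35.5% of all tested genes. The highest place there was divided, with GFP-negative 9, 11 and M highest in 5, 5 and 8 genes. These counts are descriptions, since the genes share libraries.

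**Figure D2:**
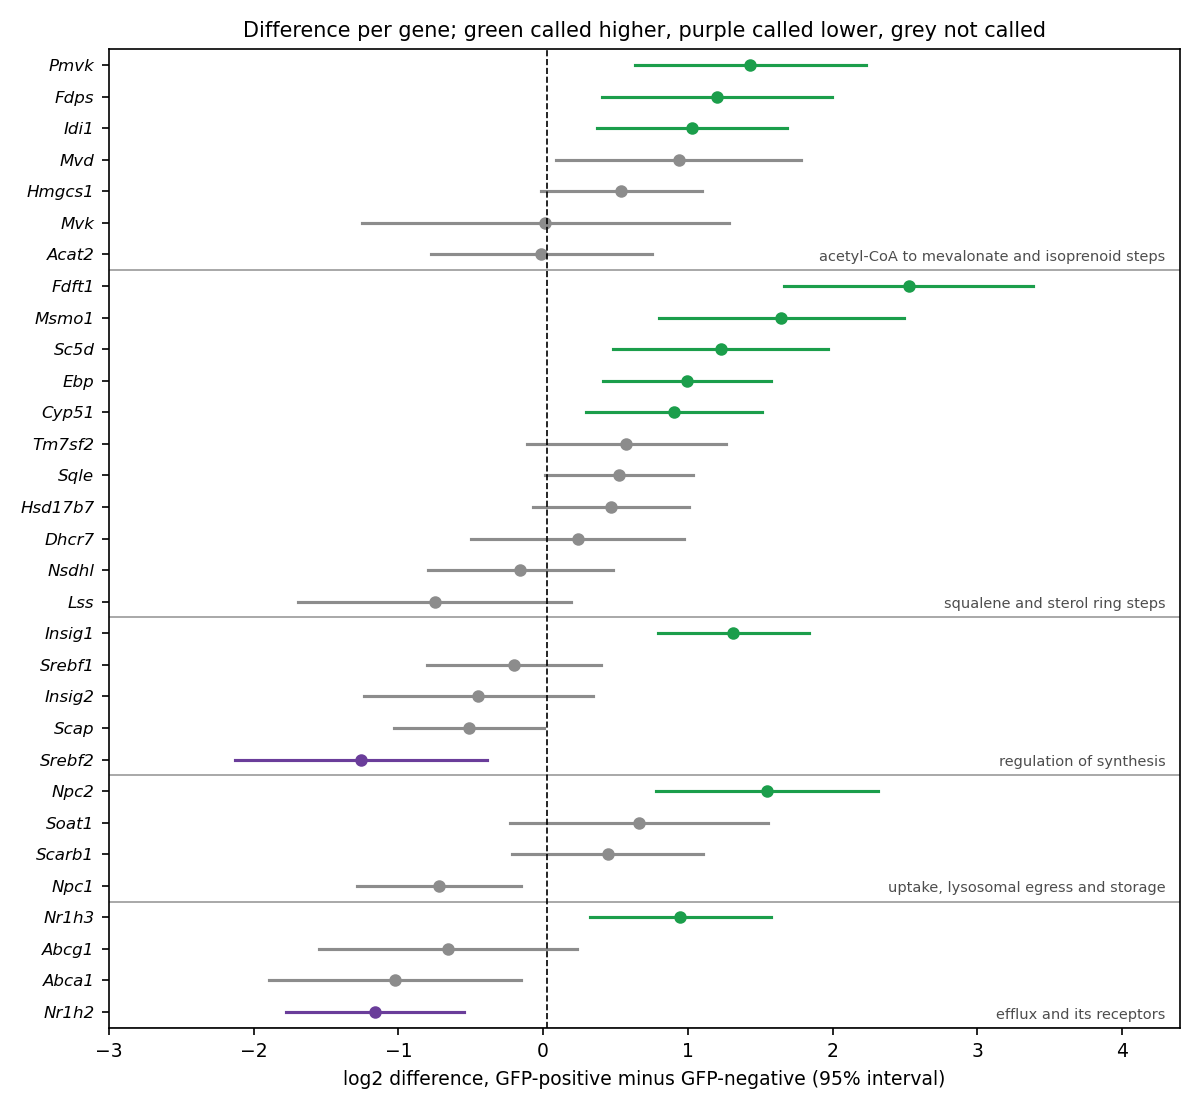
Log2 difference of each of the 31 tested genes with its 95% interval, grouped by role, green called higher, purple called lower and grey not called, with the median of all genes as a dashed line. Fdft1 at 2.53 lies farthest to the right and Srebf2 at -1.26 farthest to the left.

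Of the 5 regulators, 1 rose and 1 fell (20% each), close to the 16.6% and 13.7% of all tested genes. Insig1, which encodes a sterol sensor that retains SCAP and is itself induced by SREBP (chromosome 5, 28276361 to 28283660), stood at 49.9, 59.1 and 51.2 FPKM in the GFP-positive and 24.3, 19.0 and 20.3 FPKM in the GFP-negative libraries. The groups were tight and far apart, and Insig1 rose from 21.2 ± 2.77 to 53.4 ± 4.94 FPKM (log2 difference 1.31, SE 0.23, adjusted p = 0.00899). Among fits with 1 library removed, the one lacking GFP-negative M missed the threshold (adjusted p = 0.0547). With libraries set to an equal sum, the difference was 0.31 (0.36). Insig2, its relative that is less dependent on SREBP, was at 7.76 ± 2.34 and 11.1 ± 4.18 FPKM (-0.45, interval -1.24 to 0.34).

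Srebf2, which encodes SREBP2, the main activator of the synthesis genes (chromosome 15, 82031382 to 82089580), went opposite to most of them. The GFP-positive libraries 2, 4 and 7 held 14.5, 27.4 and 14.9 FPKM, and GFP-negative 9, 11 and M held 26.3, 62.2 and 51.9 FPKM. GFP-positive 4 and GFP-negative 9 overlapped, and Srebf2 fell, with a log2 difference of -1.26 (SE 0.38, adjusted p = 0.0388). It missed the threshold lacking GFP-positive 2 (0.109) or 7 (0.14) or GFP-negative 11 (0.0875) or M (0.127). After correction for transcript length it was at -0.87 (0.126). Scap, the escort protein gene, was at 24.7 ± 3.25 and 35.4 ± 2.41 FPKM with no overlap, and its difference of -0.51 (interval -1.03 to 0.01) did not pass (adjusted p = 0.115).

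Srebf2 overlaps Gm49502 on the same strand, and Srebf1 overlaps Rai1 on the opposite one. Srebf1, which encodes SREBP1, was at 30.8 ± 8.29 and 34.9 ± 3.99 FPKM, a difference of -0.20 (interval -0.80 to 0.40, adjusted p = 0.577), which was 0.11 with the length trend removed. It has an upstream start site, used for the 1a form, and a downstream one, used for the 1c form. As deposited, the transcript from the upstream site (chromosome 11, position 60111451) was at 12, 22 and 11.6 FPKM in the GFP-positive and 9.95, 17.7 and 21.8 FPKM in the GFP-negative libraries. The 3 transcripts from the downstream site (position 60101291) summed to 13.7, 8.47 and 7.90 against 22.2, 6.24 and 12.6 FPKM. The groups overlapped for both starts, and GFP-negative 9 had the highest downstream and the lowest upstream value. Isoform shares from short reads are estimates and were not tested.

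**Figure D3:**
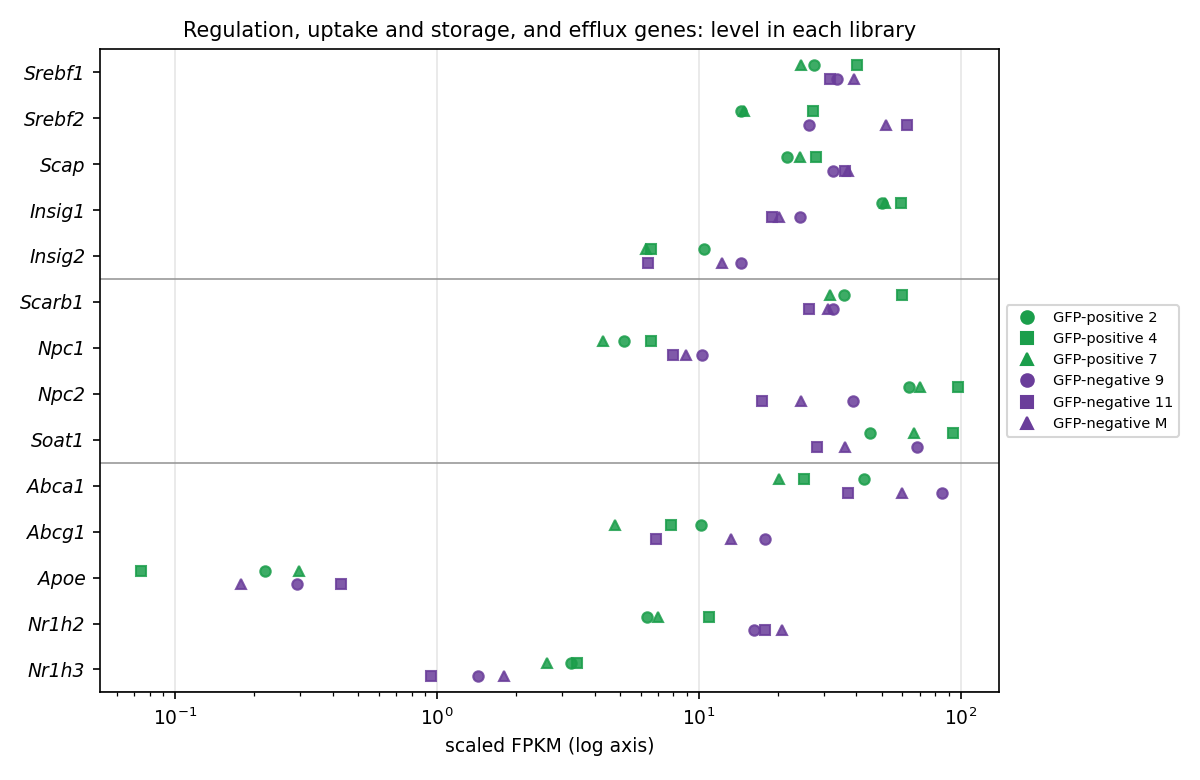
Scaled FPKM on a log axis of the 14 genes of regulation, of uptake, egress and storage, and of efflux in each library, green for GFP-positive and purple for GFP-negative. Insig1, Npc2 and Nr1h3 have all green points to the right, Scap, Npc1 and Nr1h2 all purple points to the right, and Apoe lies below 0.5 FPKM.

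Of the 4 genes of uptake, lysosomal egress and storage, 1 rose (25%) and none fell, against 16.6% and 13.7% of all tested genes. Npc2, which encodes the soluble lysosomal protein that hands cholesterol to NPC1 (chromosome 12, 84801336 to 84819926), stood at 63.3, 98.0 and 69.9 FPKM in the GFP-positive and 39.0, 17.4 and 24.6 FPKM in the GFP-negative libraries. Each GFP-positive library was above each GFP-negative one, and Npc2 rose by 1.55 (SE 0.34, adjusted p = 0.0141). Lacking GFP-positive 7 or GFP-negative M, it missed the threshold (adjusted p = 0.0558 and 0.0663), and under equal sums it was at 0.54 (0.155). Npc1, which encodes the membrane partner of NPC2 (chromosome 18, 12322749 to 12369457), had the opposite sign. Its values of 5.17, 6.55 and 4.32 against 10.3, 8.0 and 8.95 FPKM did not overlap, and its difference of -0.72 (SE 0.25, adjusted p = 0.0561) did not pass. It passed when the filter was raised to 2 FPKM (adjusted p = 0.0453), but in no fit with a library left out (0.061 to 0.226). With the length trend removed, Npc1 was at -0.29 (0.436). Npc1 overlaps Rmc1 on the opposite strand.

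Scarb1, which encodes the HDL receptor SR-BI through which Sertoli cells take up lipid, was at 42.4 ± 15.1 and 29.9 ± 3.22 FPKM (0.45, interval -0.22 to 1.11, adjusted p = 0.261). Soat1, the gene of the enzyme that esterifies cholesterol for storage, was at 45.1, 93.9 and 66.6 FPKM in the GFP-positive and 68.4, 28.3 and 36.2 FPKM in the GFP-negative libraries. GFP-negative 9 lay within the GFP-positive range, and the difference of 0.66 (adjusted p = 0.221) was 1.02 without that library (adjusted p = 0.0437). Scaled to an equal sum, Scarb1 (-0.56) and Soat1 (-0.35) were below 0.

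In efflux, the LXR genes moved in opposite directions. Nr1h3, which encodes LXRα (chromosome 2, 91014406 to 91033179), stood at 3.25, 3.42 and 2.64 FPKM in the GFP-positive and 1.43, 0.946 and 1.80 FPKM in the GFP-negative libraries and rose by 0.95 (SE 0.28, adjusted p = 0.0335). Nr1h2, which encodes LXRβ (chromosome 7, 44199040 to 44203375), stood at 6.37, 11.0 and 6.97 against 16.3, 17.9 and 20.8 FPKM. It fell, with a log2 difference of -1.16 (SE 0.27, adjusted p = 0.0167). Neither gene overlapped between groups, and Nr1h2 was the more abundant in each library. Nr1h3 passed in 1 of the 6 fits with a library left out, that without GFP-negative 9, with adjusted p from 0.076 (without GFP-positive 2) to 0.0914 (without GFP-negative 11) in the others (0.0884 and 0.0833 without GFP-positive 4 and 7, and 0.0782 without GFP-negative M). Nr1h2 missed lacking GFP-positive 2 (0.053), GFP-positive 7 (0.0825) or GFP-negative M (0.0773). With the length trend removed, Nr1h2 passed and Nr1h3 did not (0.68, adjusted p = 0.118). Under equal sums Nr1h3 was at 0.13 (0.783).

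The exporters that LXR controls did not pass. Abca1, which loads cholesterol onto apolipoprotein A-I, stood at 42.9, 25.2 and 20.3 FPKM in the GFP-positive and 85.2, 37.3 and 59.8 FPKM in the GFP-negative libraries, with GFP-positive 2 above GFP-negative 11 (-1.02, SE 0.38, adjusted p = 0.0708). Without GFP-negative 11 the difference was -1.37 and passed (adjusted p = 0.0354), and so it did for named transcripts only (-1.17, adjusted p = 0.0467) and after quantile normalization (-1.33, adjusted p = 0.0407). Abcg1, which exports to mature HDL, was at 10.2, 7.84 and 4.79 against 17.9, 6.84 and 13.2 FPKM (-0.66, interval -1.55 to 0.24, adjusted p = 0.224). With the length trend removed, Abca1 was at -0.28 (adjusted p = 0.633) and Abcg1 at -0.17 (0.785). Both exporters were highest in GFP-positive 2 and GFP-negative 9 within their groups and lowest in GFP-positive 7 and GFP-negative 11. The macrophage markers, from another cell type rich in Abca1, summed to 3.17 to 3.83 FPKM in the GFP-positive and 4.69 to 11.3 FPKM in the GFP-negative libraries. Lyz2 (0.62 to 0.85 and 2.16 to 6.07 FPKM) led in the GFP-negative libraries. In each GFP-positive library Cd68 (0.84 to 1.40 FPKM) was above Lyz2. Of 10 such markers 3 were tested and Lyz2 fell, while Cd68 (0.24, adjusted p = 0.521) and Cd14 (-0.15, 0.784) were not called. The part of these markers in the exporter values was not tested.

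Apoe, which encodes apolipoprotein E, was the 1 gene below the filter, at 0.197 ± 0.113 and 0.301 ± 0.126 FPKM. This value covers named transcripts, and the locus also carried 1 unnamed transcript that joins Apoe and its neighbour Tomm40. That transcript was at 2.16, 0.688 and 1.42 FPKM as deposited in the GFP-positive and 3.83, 9.92 and 6.12 FPKM in the GFP-negative libraries. Added to Apoe it gave a level of 1.59 and 7.02 FPKM and a difference of -1.79 (SE 0.41, adjusted p = 0.0166), so the level of Apoe depends on how that transcript is assigned.

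**Figure D4:**
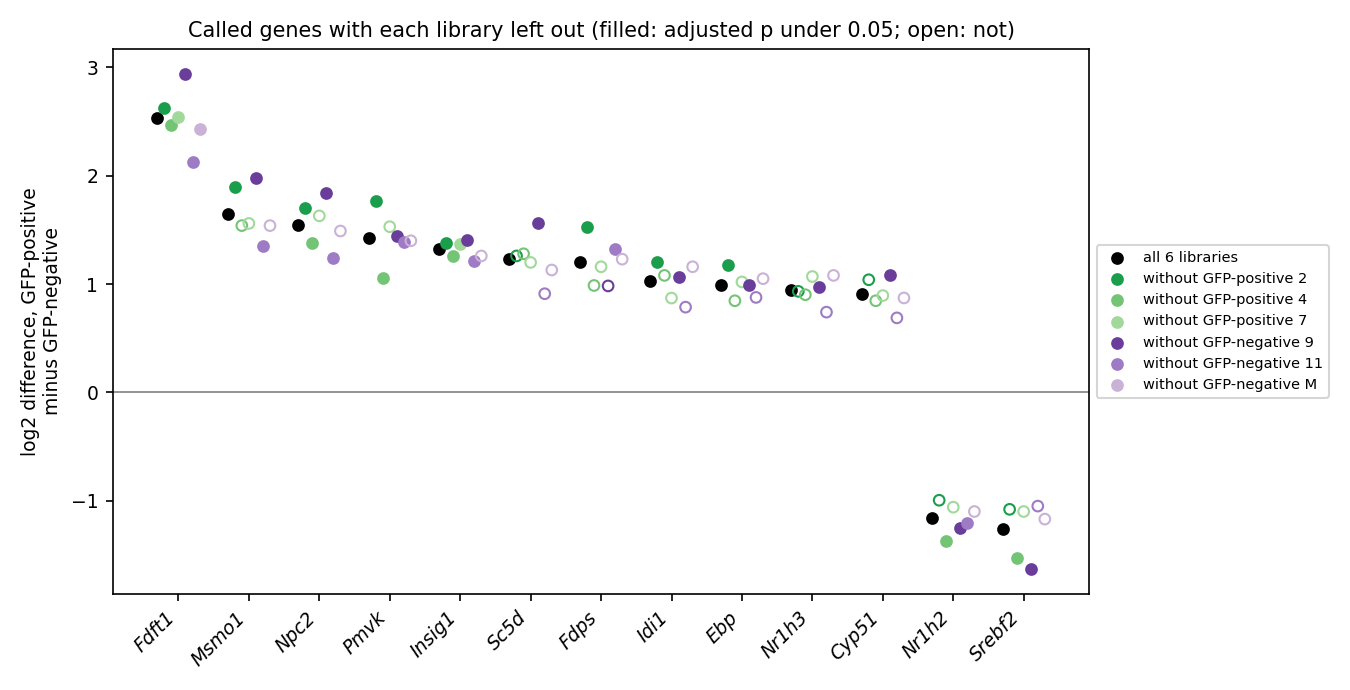
Log2 difference of the 13 called genes with all 6 libraries (black) and with each library left out (green shades for GFP-positive, purple shades for GFP-negative), filled where the adjusted p was under 0.05. No gene changes sign, Fdft1 is filled in all 6 fits and Insig1 in 5.

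Neighbouring genes of the pathway were described from 6 lists. Among 13 genes of acetyl-CoA supply and mevalonate side branches, 2 rose and 2 fell (15.4% each), near the shares among all tested genes of 16.6% and 13.7%. Acat1, the mitochondrial thiolase gene, rose from 6.56 ± 0.755 to 15.8 ± 1.47 FPKM (log2 difference 1.21, SE 0.23, adjusted p = 0.0101), and Slc25a1, the citrate carrier gene, rose by 0.97 (adjusted p = 0.028). Under equal sums Acat1 was at 0.23 (0.544) and Slc25a1 at -0.04 (0.906). Acly, whose product splits citrate into acetyl-CoA, fell by 0.88 (adjusted p = 0.0322) and the prenyltransferase subunit gene Pggt1b by 1.04 (adjusted p = 0.0237). Acat1 missed lacking GFP-positive 7 (0.0543) or GFP-negative M (0.0605), and Slc25a1 passed without GFP-negative 9 alone (0.0546 to 0.106 otherwise). Acly was lost without GFP-positive 2 (0.088) or 7 (0.145) or GFP-negative 11 (0.0649) or M (0.112), and Pggt1b when GFP-positive 2 (0.0604), 4 (0.0737) or 7 (0.0566), or GFP-negative M (0.101), was removed. With the length trend removed, Slc25a1 (0.64, adjusted p = 0.122), Acly (-0.58, 0.122) and Pggt1b (-0.66, 0.117) did not pass.

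Among genes that process SREBP or degrade sterol-regulated proteins, those called were all lower. Of 10 tested, 4 fell and none rose in limma (none higher at an unadjusted p under 0.05), against 13.7% of all genes lower. Mbtps2 (-0.30, adjusted p = 0.484) was not called. Ufd1 (0.29, adjusted p = 0.321) was not called either, though its groups did not overlap, with the GFP-positive one higher. Mbtps1, which encodes the site-1 protease that makes the first cut in SREBP, fell from 25.6 ± 5.50 to 11.9 ± 2.03 FPKM (-1.06, SE 0.26, adjusted p = 0.0195). Erlin2 (-1.25, adjusted p = 0.0137), Vcp (-1.15, adjusted p = 0.0233) and the ubiquitin-conjugating enzyme gene Ube2g2 (-1.26, adjusted p = 0.0192), which act in degradation from the endoplasmic reticulum, also fell. All 4 missed the threshold lacking GFP-positive 7 (0.0566 to 0.0978) or GFP-negative M (0.0708 to 0.0871), and Mbtps1, Vcp and Ube2g2 without GFP-positive 2 (0.0535, 0.0725 and 0.0554). Mbtps1 was at -0.64 (adjusted p = 0.104) and Erlin2 at -0.84 (0.0567) after correction for transcript length. For named transcripts alone, Erlin2 was at -0.77 (adjusted p = 0.272).

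Of 12 fatty acid synthesis genes, which SREBP1 controls, 4 fell, 1 rose and 7 were not called, with a median of -0.48, against 13.7% lower and 16.6% higher among all tested genes. The difference from the sterol genes was not tested. Fasn, the fatty acid synthase gene, fell from 84.1 ± 28.2 to 23.3 ± 8.46 FPKM (-1.82, SE 0.36, adjusted p = 0.0109). Acaca, which encodes acetyl-CoA carboxylase, was even within groups and fell from 18.02 ± 2.60 to 6.88 ± 0.115 FPKM (-1.32, SE 0.22, adjusted p = 0.0084). Scd2, a desaturase gene, stood at 53.97, 72.4 and 41.4 FPKM in the GFP-positive and 177.6, 171.6 and 265.3 FPKM in the GFP-negative libraries, a fall of 1.87 (SE 0.31, adjusted p = 0.00813). Lpin1, chosen after its value was seen, fell by 0.81 (adjusted p = 0.0489), and Acsl3, an acyl-CoA synthetase gene, rose by 1.16 (adjusted p = 0.0327). Scd2 and Acaca passed with each library left out, Fasn missed (adjusted p = 0.056) when either GFP-positive 7 or GFP-negative M was removed, and Acsl3 passed without GFP-positive 4 or GFP-negative 9 (0.0841 to 0.125 otherwise). Acsl3 was at 0.21 (0.669) under equal sums. With the length trend removed, Fasn (-1.12) and Acaca (-0.62) did not pass (adjusted p = 0.0644 and 0.0858), nor did Acaca for named transcripts alone (0.0619).

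Of 11 other receptors and uptake adaptors, 6 were tested, 2 fell and none rose in limma (none higher at an unadjusted p under 0.05), against 13.7% lower and 16.6% higher among all genes. Lrp1, which encodes a large endocytic receptor for apolipoprotein E and other ligands, fell from 56.6 ± 33.6 to 7.76 ± 1.34 FPKM (-2.57, SE 0.48, adjusted p = 0.00981). The GFP-negative libraries 9, 11 and M held 20.7, 87.4 and 61.7 FPKM, and lacking M it missed the threshold (adjusted p = 0.0546). Vldlr, the very low density lipoprotein receptor gene, fell by 1.12 (adjusted p = 0.0231). It missed lacking GFP-positive 4 (0.0696) or 7 (0.0873), or GFP-negative 11 (0.0537) or M (0.055). It was at -0.46 (0.279) after correction for transcript length and did not pass for named transcripts alone (0.113). Among 14 genes of sterol transport and esters, 1 rose (7.14%), 2 fell (14.3%) and 11 were not called, against 16.6% higher and 13.7% lower among all genes. Tspo, which encodes a mitochondrial outer membrane protein, rose (1.34, adjusted p = 0.0323). The sterol transfer genes Gramd1a (-1.21, adjusted p = 0.0205) and Gramd1b (-1.42, adjusted p = 0.0225) fell. Tspo passed in the fit without GFP-positive 2 alone (0.0511 to 0.113 otherwise), Gramd1a missed lacking GFP-positive 2 (0.0579), GFP-positive 7 (0.0842) or GFP-negative M (0.0898), and Gramd1b without GFP-positive 4 (0.0639) or 7 (0.0936) or GFP-negative 11 (0.0537) or M (0.0903). Tspo (0.68, adjusted p = 0.217) and Gramd1b (-0.97, 0.0851) did not pass with the length trend removed, nor Tspo under equal sums (0.33, 0.482) or after quantile normalization (0.0843). Of 15 genes of oxysterols and other LXR targets, 9 were tested and none passed in limma (1 higher and 3 lower at an unadjusted p under 0.05). The most abundant were Rxrb, the partner receptor gene, at 15.2 ± 2.44 and 12.4 ± 1.94 FPKM (0.28, adjusted p = 0.386), and Pltp, a phospholipid transfer protein gene (-0.88, adjusted p = 0.411).

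**Figure D5:**
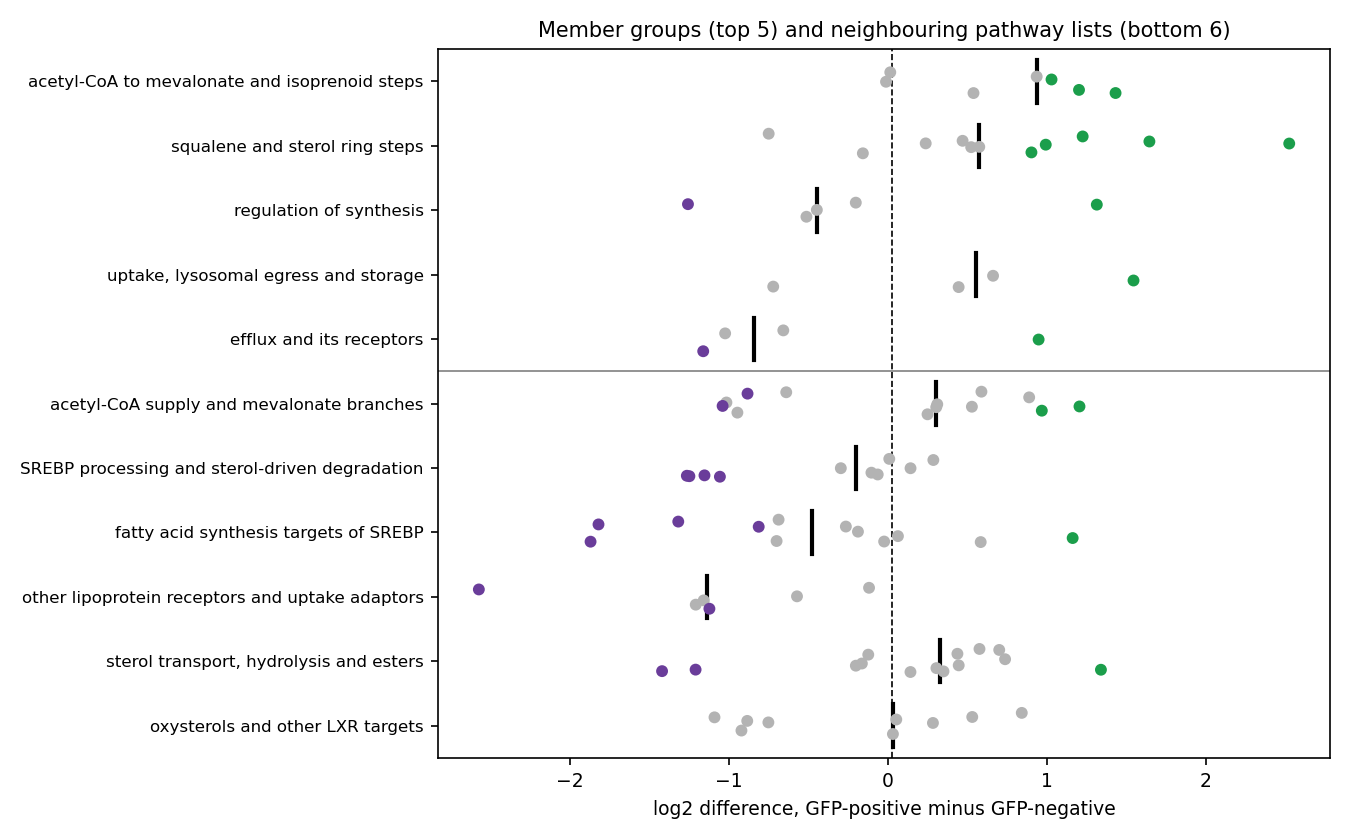
Log2 difference of each tested gene in the 5 groups of the described genes (above the line) and the 6 neighbouring lists (below it), green called higher, purple called lower and grey not called, with a black bar at each median and the median of all genes dashed. The synthesis groups have medians of 0.94 and 0.58 and no purple point, and the fatty acid list a median of -0.48 with 4 purple points.

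Genes of steroid hormone synthesis, which draws on cholesterol and marks Leydig cells in the testis, were low or overlapping. Star was at 12.5 to 22.2 FPKM in the GFP-positive and 13.3 to 57.0 FPKM in the GFP-negative libraries (-0.77, adjusted p = 0.242), and Cyp11a1 at 19.1 to 49.0 and 23.3 to 58.2 FPKM (-0.03, adjusted p = 0.967). Cyp17a1 was at 0.26 FPKM or less in each library. Of the 8 Leydig markers 5 were tested and 1, Insl3, fell, against 13.7% of all tested genes. Insl3 was at 0.33, 3.57 and 0.83 FPKM in GFP-negative 9, 11 and M and at 0.047 FPKM or less in each GFP-positive library. It thus met the filter only through the GFP-negative libraries. The summed level of the 8 markers was 46.6 to 90.7 FPKM in the GFP-positive and 82.6 to 110 FPKM in the GFP-negative libraries.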

How the data were processed

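Total RNA of 6 libraries was depleted of ribosomal RNA and sequenced with a strand-specific dUTP protocol, per the labels' protocols. Trimmomatic, HISAT2, StringTie and the build mm39 are named in the submitters' processing notes, without versions. Per the file headers, the authors' tables give FPKM and mean per-base coverage for 153503 transcripts. The tables hold no read counts, and the depth behind single values is unknown. Coverage divided by FPKM gave the aligned bases.

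Each gene's FPKM adds up the transcripts that carry its name and unnamed isoforms at loci of 1 gene name on that strand, and 1425 unnamed transcripts at loci of several names were left out. Scaling used the median of ratios, taken over 12678 genes. Genes with a mean under 0.5 FPKM or no transcript of 200 nt were left out. log2(scaled FPKM + 0.5) was tested with limma 3.58.1 in R 4.3.3 (eBayes with trend), adjusted by Benjamini-Hochberg over 15294 genes at 0.05. The pseudocount understates changes of low genes. The script was tested on simulated data. Alternatives were 16 planned and 2 chosen after seeing the data. Members and lists were chosen with earlier results of these data known. All 32 members are named, and from each neighbouring list up to 4 called genes of lowest adjusted p (if none, the 2 most abundant). Tables were read with pandas 2.3.3 and plotted with matplotlib 3.10.9 in Python 3.11.15.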

Additional observations from a re-analysis of the deposited data

How the results depend on the processing

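No paired analysis was possible because the groups share no replicate numbers. With 1 library left out at a time, all called genes numbered 538 to 6209 (4635 with all 6). Members called higher numbered 1 to 11 and lower 0 to 3, synthesis members higher 1 to 7 and lower 0 to 1, and genes of the neighbouring lists higher 0 to 5 and lower 2 to 18. Each of the lowest counts was reached without GFP-negative M. Without GFP-positive 7, too, 1 synthesis member was higher, and no member lower or list gene higher. Fdft1 passed in all 18 alternatives. With no filter, 1772 genes passed, with 2 members higher (Fdft1 and Insig1), 0 lower, 1 synthesis member higher, and 1 list gene higher and 5 lower. With equal sums, 7348 passed, 1 member higher and 10 lower, 1 synthesis member (Fdft1) higher and 2 lower, and 0 list genes higher and 37 lower. With the length trend removed, 2298 passed, 7 members higher and 1 lower, 5 synthesis members higher, and 2 list genes higher and 5 lower. Those synthesis members were Fdft1, Msmo1, Cyp51 and Sc5d, and Hsd17b7, which was not called in the fit used here. After quantile normalization 8 members were higher and 4 lower, with 5 synthesis members and 2 list genes higher. Library weights by limma's default method did not converge and are not given. With weights gene by gene, 9193 passed, 15 members higher and 8 lower, 11 synthesis members higher and 1 lower, and 12 list genes higher and 26 lower.

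Signs changed mostly under equal sums, where the median of all genes moved from 0.03 to -0.85. Under equal sums they were Hmgcs1 -0.48, Mvk -0.94, Mvd -0.0385, Sqle -0.48, Cyp51 -0.10, Tm7sf2 -0.34, Hsd17b7 -0.48, Dhcr7 -0.75, Scarb1 -0.56, Soat1 -0.35, Slc25a1 -0.0442 and Rxrb -0.70. Mvk was also -0.00703 at a pseudocount of 1, -0.00823 as deposited, -0.0832 for named transcripts, -0.29 with the length trend removed, -0.22 with library weights, and -0.673 to 0.497 over the fits with a library left out (-0.176 without GFP-positive 4, -0.00594 without 7). Srebf1 was 0.11 with the length trend removed. Acat2 was 0.0025 for named transcripts and -0.306 to 0.22 with a library left out (0.182 without GFP-positive 2, 0.042 without 7). Nsdhl ranged from -0.364 to 0.103 and Dhcr7 from -0.0826 to 0.528. No causes were tested.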

Other observations

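Transcript levels within 3 of the genes differed between libraries in ways the gene sums do not show. They are given as deposited FPKM, with no test. In Dhcr7 the transcript from the first start was at 2.00, 0 and 6.13 FPKM in GFP-positive 2, 4 and 7 and at 5.10, 10.5 and 7.00 FPKM in GFP-negative 9, 11 and M. The one from the next start was at 9.97, 18.3 and 6.52 against 3.38, 0 and 7.83 FPKM, so that GFP-positive 4 and GFP-negative 11 used opposite forms. In Soat1 a transcript of 2925 nt was at 22.3, 34.1 and 15.1 FPKM in the GFP-positive libraries and 29.5 FPKM in GFP-negative 9, against 3.35 and 1.65 FPKM in GFP-negative 11 and M, whereas the longest form (8371 nt) ranged from 17.7 to 31.0 FPKM over the 6 libraries. In Pmvk the main form was at 8.71 to 12.2 FPKM in the GFP-positive and 4.77 to 5.46 FPKM in the GFP-negative libraries. Its second form was at 2.51, 12.7 and 4.35 against 1.41, 0.195 and 0.343 FPKM. Such shares are estimates from short reads.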
